A study of Mus musculus with 12 samples.

Results

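The 7 genes described here make and remove DNA methylation in the mouse. They were taken by name from the deposited count table, in which all 7 were found among 36255 genes, and all 7 passed the filter on low counts in every comparison. Their transcripts were counted in 11 poly(A) RNA-seq libraries labelled as mouse embryo, which form 6 groups by their titles. The groups are Skp1aKO at 9.5 days post coitum (dpc, 2 libraries), Skp1acont at 9.5 dpc (2 libraries), Skp1acont with PI at 9.5 dpc (1 library), wt with PI at 9.5 dpc (2 libraries), wt at 9.5 dpc (2 libraries) and wt at 9.0 dpc (2 libraries). The titles also carry "mb" and a lot number, 1 or 2, and neither "mb", "PI" nor "cont" is spelled out. The labels name no strain, Cre driver or allele beyond these words, and the second labelled Skp1acont PI library was not analysed here. The growth note speaks of ES cell and embryoid body medium, while the source is embryo. Of 7 midbrain and isthmus markers, Otx2 was at 90.6 to 268 CPM (counts scaled to library size, with TMM factors), En1 at 17.2 to 66.4, En2 at 20.4 to 72.2, Pax5 at 11.7 to 53.4 and Wnt1 at 2.20 to 13.1 CPM over the libraries. Pax2 and Fgf8 stayed at or under 4.30 and 4.83 CPM. The labels do not state that replicate libraries are different embryos, and a p-value here reflects library spread, possibly technical.

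DNA methylation is copied and set by separate enzymes. DNMT1 restores methylation on newly replicated DNA, and UHRF1 recognises the hemimethylated site and brings DNMT1 to it. DNMT3A and DNMT3B place methylation de novo, and in mouse embryos DNMT3B acts mainly around and after implantation while DNMT3A persists in the nervous system. TET1, TET2 and TET3 oxidise methylated cytosine, after which the base is lost by dilution at replication or is cut out by TDG and base excision repair.

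The genes lie on 7 chromosomes of GRCm38 (GENCODE M21 gene spans, whole genes counted over their exons). Dnmt1 (ENSMUSG00000004099.16) spans chr9:20907209-20959888 on the minus strand, and Uhrf1 (ENSMUSG00000001228.14) spans chr17:56303321-56323486 on the plus strand. Dnmt3a (ENSMUSG00000020661.15) spans chr12:3806007-3914443 and Dnmt3b (ENSMUSG00000027478.15) spans chr2:153649450-153687730, both on the plus strand. Tet1 (ENSMUSG00000047146.17) spans chr10:62804570-62908996, Tet2 (ENSMUSG00000040943.12) spans chr3:133463679-133545139 and Tet3 (ENSMUSG00000034832.15) spans chr6:83362373-83459084, all on the minus strand. Strand use in counting is not given in the sources used here, and 0.799% of the exon bases of Dnmt3a and 0.255% of those of Tet2 are shared with genes on the opposite strand. No other member shares exon bases with a gene.

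CpG dinucleotides are the sites on which these enzymes act, and the start regions of the genes themselves differ in how many they hold. In the 300 bases around the most upstream RefSeq start (250 before and 50 after), Tet2 has 57 CpG, Dnmt3a has 46, Dnmt3b has 30, Tet3 has 22, Tet1 has 17, Uhrf1 has 12 and Dnmt1 has 2. The median over 27018 genes is 7, and Tet2 and Dnmt3a lie at the 99.8 and 98.4 percentiles. Dnmt1 and Dnmt3a have 3 such RefSeq windows each and Uhrf1 has 2. The windows of Tet1 (chr10:62887275-62887574) and Tet3 (chr6:83441629-83441928) lie well inside the gene spans given above. These windows may not hold the starts used in these cells, and the order by CpG is that of the windows only. The stretches before the start of Dnmt3b and Tet2, the members with the most changes called below, and of Dnmt3a, the partner of Dnmt3b, are printed from RefSeq (GRCm38.p6), with CpG in capitals and without annotated exon bases. They are Dnmt3b at chr2:153649199-153649410 (plus strand, overlapping the opposite-strand gene Dnmt3bos), Dnmt3a at chr12:3806730-3806979 (plus strand) and Tet2 at chr3:133544391-133544640 (minus strand). Those of Dnmt3a and Tet2 lie within the gene's span but outside its exons.
Dnmt3b: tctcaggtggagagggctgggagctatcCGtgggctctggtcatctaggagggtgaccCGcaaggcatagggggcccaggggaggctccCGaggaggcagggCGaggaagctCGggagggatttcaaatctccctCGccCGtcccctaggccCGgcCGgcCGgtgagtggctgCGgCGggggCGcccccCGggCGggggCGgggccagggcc
Dnmt3a: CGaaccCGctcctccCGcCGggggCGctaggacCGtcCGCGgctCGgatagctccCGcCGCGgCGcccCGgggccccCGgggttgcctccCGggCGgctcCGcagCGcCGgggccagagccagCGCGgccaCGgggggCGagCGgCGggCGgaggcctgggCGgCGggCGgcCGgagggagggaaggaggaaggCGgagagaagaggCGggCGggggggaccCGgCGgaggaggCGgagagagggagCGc
Tet2: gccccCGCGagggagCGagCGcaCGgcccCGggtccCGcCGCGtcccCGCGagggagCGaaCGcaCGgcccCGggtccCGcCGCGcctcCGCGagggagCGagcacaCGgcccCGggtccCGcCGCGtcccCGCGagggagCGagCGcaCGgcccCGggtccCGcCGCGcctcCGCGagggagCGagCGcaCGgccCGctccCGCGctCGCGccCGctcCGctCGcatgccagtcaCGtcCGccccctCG
The run printed for Dnmt3b ends at chr2:153649410, short of the gene's start at chr2:153649450, and holds 16 CpG in 212 bases. That printed for Dnmt3a holds 38 in 250 and that for Tet2 51 in 250. DNA methylation itself was not measured in these libraries.

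Total counts ranged from 2320599 to 11607085 per library. The libraries carrying a Skp1a label stood apart from the wt libraries: mitochondrial genes took 5.98% to 15.8% of their counts against 2.44% to 4.01% in wt libraries. The background, taken from 1767 chemoreceptor genes (their median level per kb of exon), which embryos are not known to use, was 3.54 to 17.0 times that of the lowest library in them, against 1 to 2.08 times in wt libraries. Skp1acont replicate 2 had the smallest total and the highest mitochondrial share and background. Its correlation with replicate 1 across genes was 0.795 on the log2 CPM scale, against 0.966 to 0.980 for the pairs of the other groups. Skp1a, the gene named in the labels, was at 199 and 212 CPM in Skp1aKO-labelled libraries, at 303 and 104 CPM in Skp1acont-labelled ones and at 273 CPM in the Skp1acont PI library. The wt libraries had 1180 and 1261 CPM (PI), 930 and 1136 CPM (9.5 dpc) and 1209 and 1337 CPM (9.0 dpc). Thus Skp1a was low in all Skp1a-labelled libraries and did not separate those labelled KO from those labelled cont.

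Per kb of exon, Uhrf1 was the most abundant of the 7 genes in every group and Tet2 the least abundant in each wt group. In Skp1aKO-labelled libraries, Uhrf1 had 33.6 ± 0.089 CPM per kb, Dnmt1 10.1 ± 0.028, Dnmt3b 3.28 ± 0.17 and Tet3 2.98 ± 0.24. Below them lay Dnmt3a at 2.42 ± 0.063, Tet1 at 2.20 ± 0.31 and Tet2 at 1.95 ± 0.030 CPM per kb. Of these neighbours Dnmt3a and Tet1 overlapped, and Dnmt3b and Tet3, as well as Tet1 and Tet2, differed by less than the sum of their SDs. At 9.5 dpc, wt libraries had 39.9 ± 1.40 CPM per kb of Uhrf1 and 11.1 ± 0.59 of Dnmt1 (mean ± SD, n = 2). In the same libraries Dnmt3b had 5.25 ± 0.20, Tet3 3.42 ± 0.11, Dnmt3a 3.41 ± 0.49, Tet1 2.75 ± 0.37 and Tet2 0.856 ± 0.236 CPM per kb. Tet3 and Dnmt3a did not differ beyond their spread in that order, nor did Dnmt3a and Tet1. The order differed at 9.0 dpc, where Dnmt3b, at 16.1 ± 0.25 CPM per kb, stood above Dnmt1, at 13.9 ± 0.56 CPM per kb. Lengths are unions of all annotated exons, so levels per kb of genes with many alternative exons are understated.

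**Figure D1:**
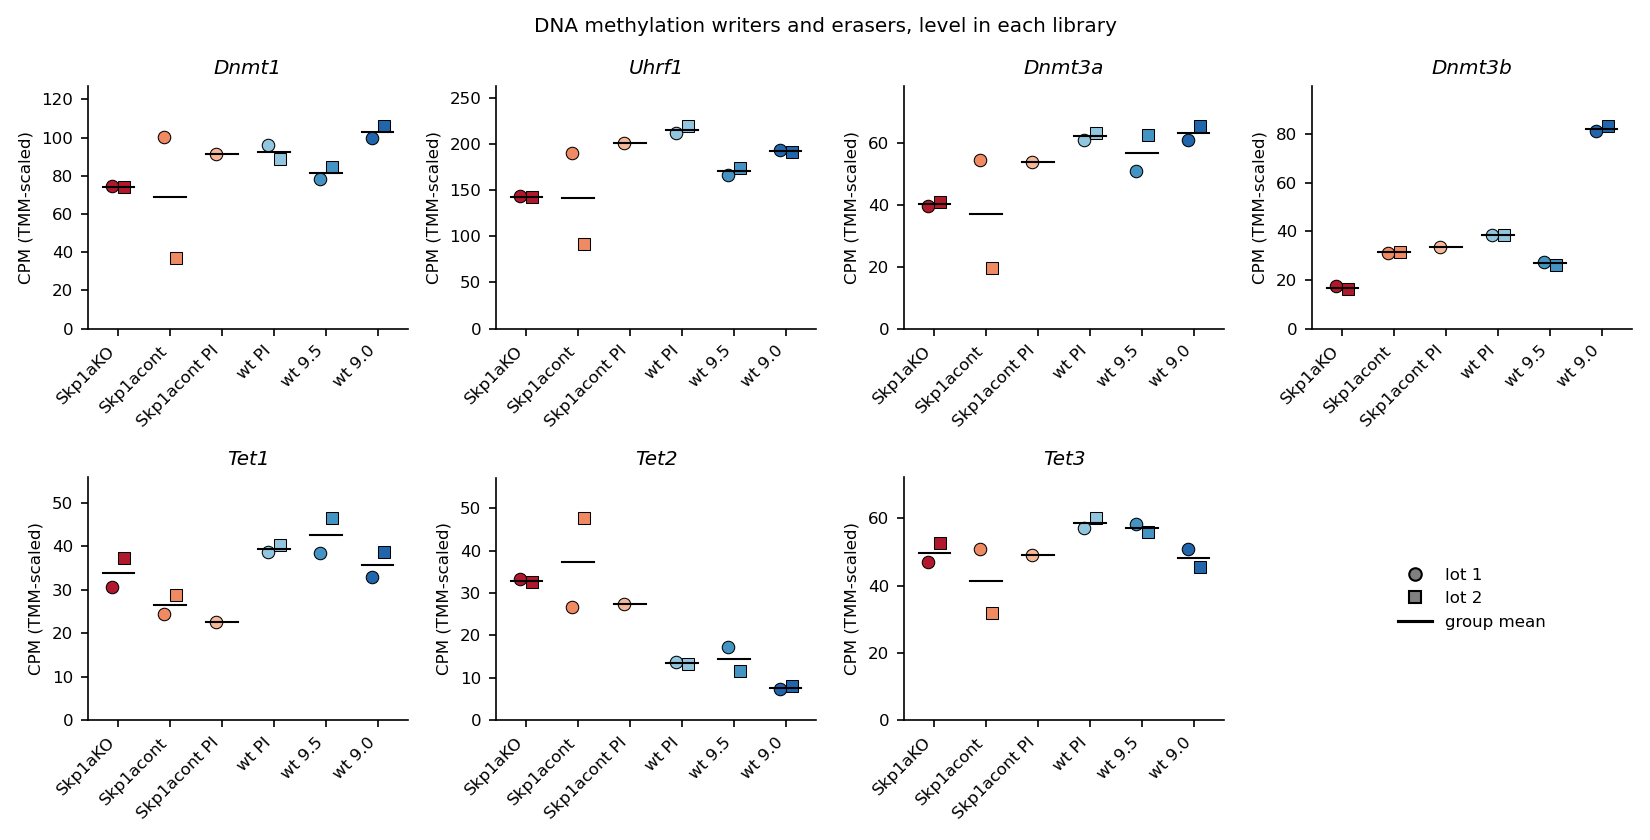
Level of each gene in each library, in TMM-scaled CPM on the vertical axis, by group on the horizontal axis; circles are lot 1, squares lot 2 and the bar is the group mean. Dnmt3b stands at 81.3 and 83.1 CPM in wt libraries at 9.0 dpc, above all other libraries, and Tet2 is at 26.8 CPM or more in every Skp1a-labelled library and at 17.3 CPM or less in every wt library.

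The comparison of wt embryos at 9.5 dpc with those at 9.0 dpc asks how the genes change over this step of development. Dnmt3b, the de novo methyltransferase of the early embryo, fell about 3-fold. Dnmt1 fell slightly, Tet2 rose, and the other 4 genes did not pass the test. Dnmt3b had 27.5 and 26.1 CPM at 9.5 dpc, against 81.3 and 83.1 CPM at 9.0 dpc (lot 1 and lot 2 in each pair of values, here and below). The groups do not overlap, and both lots differ by a like amount. Its log2 fold change was -1.59 ± 0.11 (SE), with an adjusted p of 1.23e-05 by edgeR's quasi-likelihood test with Benjamini-Hochberg adjustment over all 13126 genes tested. Calls were made below an adjusted p of 0.05. In a bulk sample, fewer cells of a type and less RNA per cell cannot be told apart. The call held in all 11 alternative analyses, with log2 fold changes from -1.63 to -1.47.

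Tet2, the dioxygenase best known from blood-forming cells, had 17.3 and 11.6 CPM at 9.5 dpc, against 7.26 and 8.06 CPM at 9.0 dpc. All values at 9.5 dpc lie above those at 9.0 dpc, though they rest on 47 and 86 counts against 21 and 68 counts. The log2 fold change was 0.87 ± 0.23 (adjusted p = 0.0179 by edgeR). Dnmt1, the maintenance enzyme, had 78.6 and 84.7 CPM at 9.5 dpc, against 99.97 and 106 CPM at 9.0 dpc. Its log2 fold change was -0.30 ± 0.10 (adjusted p = 0.0375 by edgeR), and the groups do not overlap. Both calls are fragile. That of Tet2 was lost in 3 of the 4 fits that left out 1 of the compared libraries (adjusted p = 0.073 without wt 9.5 dpc replicate 1, 0.0768 and 0.0795 without either 9.0 dpc library) and in the DESeq2 Wald test (0.111), and that of Dnmt1 in all 4 such fits (adjusted p from 0.0681 to 0.216) and under library totals, the DESeq2 Wald test or no filter on low counts (0.188 to 0.312).

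The other 4 genes did not pass. Tet3 had 58.4 and 55.9 CPM at 9.5 dpc, against 50.9 and 45.6 CPM at 9.0 dpc, and its log2 fold change of 0.28 ± 0.11 did not pass (adjusted p = 0.0910 by edgeR). With the lot as a block, which pairs the wt libraries, Tet3 passed, with 0.28 and an adjusted p of 0.0418, and it also passed under library totals (0.39, adjusted p = 0.0309). Tet1 had 38.5 and 46.5 CPM at 9.5 dpc, against 32.9 and 38.6 CPM at 9.0 dpc, groups that overlap (log2 fold change 0.28 ± 0.13, adjusted p = 0.137 by edgeR). Uhrf1, the DNMT1 recruiter, had 166 and 174 CPM at 9.5 dpc, against 193 and 191 CPM at 9.0 dpc (-0.14 ± 0.09 on the log2 scale, adjusted p = 0.267 by edgeR). Dnmt3a had 51.0 and 62.6 CPM at 9.5 dpc, against 60.9 and 65.4 CPM at 9.0 dpc (-0.12 ± 0.11, adjusted p = 0.479 by edgeR). In all, 1 of 7 genes was called higher and 2 lower, where 15.0% and 16.7% of all genes tested were called higher and lower, so the count of 3 in 7 is near that background.

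**Figure D2:**
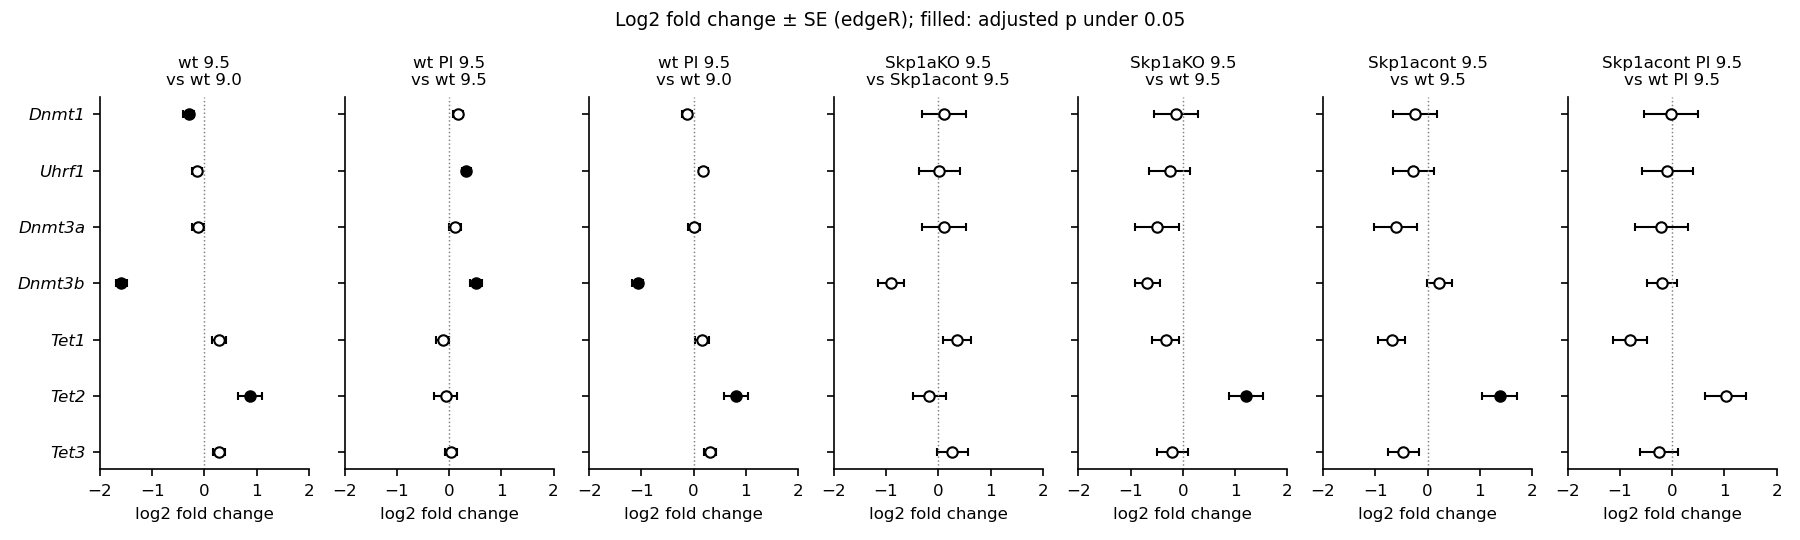
Log2 fold change of each gene, with its SE, in each of the 7 comparisons, the group named first over the group named second; filled points have an adjusted p under 0.05. Dnmt3b lies at -1.59 and -1.07 in the 2 comparisons with wt at 9.0 dpc, and Tet2 lies at 1.02 to 1.38 in the 3 comparisons of Skp1a-labelled with wt libraries, called in 2 of them.

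The balance between related enzymes does not depend on how libraries are scaled. Dnmt3b made up 35.1% (Wilson 95% interval 29.0% to 41.6%) and 29.4% (26.1% to 33.0%) of the counts of Dnmt3a and Dnmt3b together in wt libraries at 9.5 dpc. At 9.0 dpc its share was 57.2% (52.4% to 61.9%) and 56.0% (53.2% to 58.7%). No interval at 9.5 dpc reaches those at 9.0 dpc. Among the 3 TET genes, Tet2 made up 15.1% (11.6% to 19.5%) and 10.2% (8.34% to 12.4%) of counts at 9.5 dpc, and 7.99% (5.28% to 11.9%) and 8.73% (6.94% to 10.9%) at 9.0 dpc. Here the intervals overlap. Intervals cover counting error only and not the spread between libraries. Reads without molecular identifiers are not independent molecules, so the intervals may be too narrow even for counting error.

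**Figure D3:**
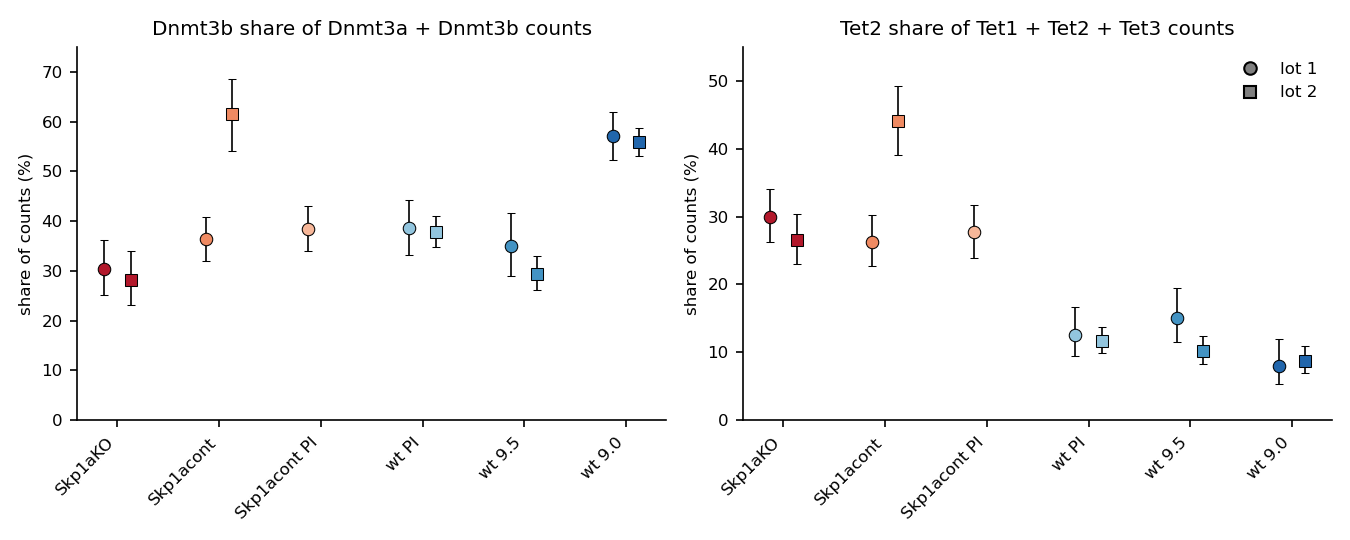
Share of Dnmt3b in the summed counts of Dnmt3a and Dnmt3b (left) and of Tet2 in those of Tet1, Tet2 and Tet3 (right), in percent, by group and library; bars are Wilson 95% intervals of counting error. The Dnmt3b share is 28.2% to 38.5% in all libraries other than Skp1acont replicate 2 (61.5%) and those of wt at 9.0 dpc (56.0% and 57.2%); the Tet2 share is 26.3% to 44.1% in Skp1a-labelled libraries and 7.99% to 15.1% in wt libraries.

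Partners of the 7 genes were followed in 6 lists with 56 genes, 54 of them tested, of which 6 were higher and 13 lower at 9.5 dpc than at 9.0 dpc. Of all genes tested 15.0% were higher and 16.7% lower. Of 11 maintenance partners 5 fell and none rose, among them Cdca7 (log2 fold change -0.91), whose product targets the remodeller HELLS to chromatin, Usp7 (-0.59), a deubiquitinase that stabilises DNMT1 and UHRF1, and the replication ligase gene Lig1 (-0.44). Among 9 genes of methyl donor supply 1 rose and 3 fell. Those that fell were Mat2a (-0.78), which encodes the S-adenosylmethionine synthetase subunit, and the folate-cycle genes Shmt2 (-0.69) and Mthfd1 (-0.78). Of 7 TET partners and cofactor genes 2 rose, Idh1 (1.67), whose enzyme makes the TET cosubstrate 2-oxoglutarate, and Cxxc4 (1.18), whose product binds TET2, and none fell. Among 9 tested genes for recruitment of de novo methylation, the histone methyltransferase gene Ehmt2 (-0.84) and Trim28 (-0.45), the corepressor of zinc finger proteins, fell, and Nsd2 (0.42) rose. Of 10 genes of base excision repair 3 fell, with Apex1 (-0.72), the abasic endonuclease, Parp1 (-0.28) and Xrcc1 (-0.56), and Neil3 (0.71), a glycosylase, rose. Of 8 readers of methylated DNA 1 rose and none fell. The median log2 fold change of the tested partners was -0.08, against -0.02 over all genes. Scaled by library totals, 8 partners were higher and 7 lower, where 18.4% of all genes were higher and 10.4% lower. Cdca7 and Usp7 were then the maintenance partners still called among the 5 that fell (Lig1 had an adjusted p of 0.0654 by edgeR), and the calls of Trim28 (0.0532), Xrcc1 (0.113) and Parp1 (0.282) were lost too.

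Other genes moved with the stage. All 5 neuron markers were called higher, with summed levels of 518 to 596 CPM at 9.5 dpc and 77.5 to 87.2 CPM at 9.0 dpc. Of 6 neural progenitor markers 5 were higher (1398 to 1549 CPM against 292 to 321 CPM), and all 3 macrophage and platelet markers tested, of 4, were higher (98.7 to 111 CPM against 0.692 to 2.61 CPM). Most of these sums at 9.5 dpc came from Fabp7 (1111 and 1049 CPM, against 111 and 99.1 CPM at 9.0 dpc) and from Pf4 (78.2 and 97.0 CPM, against 0.346 and 0.119 CPM). Of 6 erythroid markers 2 were higher (9559 to 12999.5 CPM against 3760 to 3777 CPM), and of 5 mesenchyme markers 3 were higher and 2 lower (429 to 483 CPM against 200 to 219 CPM). Most of the mesenchyme sums at 9.5 dpc came from Col3a1 (360 and 321 CPM, against 90.6 and 86.6 CPM at 9.0 dpc). Of 5 surface ectoderm markers 4 were lower (29.0 to 36.8 CPM against 214 to 225 CPM). Of 4 placenta and yolk sac markers none was called, though Prl8a2 had 177 and 31.9 CPM at 9.5 dpc, against 2.08 and 2.37 CPM at 9.0 dpc. Of 5 midbrain and isthmus markers tested 2 were higher and 2 lower, and 1 of 5 endothelial markers was higher. Of 12 S-phase and mitosis genes 1 was higher and 4 lower, with summed levels of 2786 to 2907 CPM at 9.5 dpc and 2971 to 3324 CPM at 9.0 dpc. The part of these cell types and of proliferation in the changes of the 7 genes was not tested.

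Between wt libraries with PI and those without at 9.5 dpc, Dnmt3b and Uhrf1 rose and no member fell, where 15.6% of all genes tested were called higher and 12.4% lower. Dnmt3b had 38.3 and 38.6 CPM with PI, against 27.5 and 26.1 CPM without, and the groups do not overlap. Its log2 fold change was 0.52 ± 0.11 (adjusted p = 0.00759 by edgeR). Uhrf1 had 211 and 219 CPM with PI, against 166 and 174 CPM without, again with no overlap. Its log2 fold change was 0.33 ± 0.09 (adjusted p = 0.0222 by edgeR). The call of Dnmt3b was lost without either PI library (adjusted p = 0.0519 and 0.0764) and in the DESeq2 Wald test (0.0674), and that of Uhrf1 without either PI library or wt 9.5 dpc replicate 1 (0.104 to 0.177) and with no filter on low counts (0.145).

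The remaining members did not pass. Dnmt1 had 96.2 and 88.9 CPM with PI, against 78.6 and 84.7 CPM without (0.17 ± 0.10 on the log2 scale, adjusted p = 0.226 by edgeR). Log2 fold changes of Dnmt3a, Tet1, Tet2 and Tet3 lay between -0.12 and 0.12, with adjusted p-values of 0.491 to 0.928. Dnmt3a had 61.0 and 63.5 CPM, Tet1 38.6 and 40.2, Tet2 13.8 and 13.2 and Tet3 57.2 and 60.1 CPM in the PI libraries. The Dnmt3b share of de novo counts was 38.5% (33.1% to 44.3%) and 37.8% (34.8% to 41.0%) with PI, against 35.1% and 29.4% without.

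Against wt libraries at 9.0 dpc, those with PI at 9.5 dpc had lower Dnmt3b and higher Tet2, while 8.60% of all genes tested were called higher and 6.99% lower. Dnmt3b had 38.3 and 38.6 CPM with PI, against 81.3 and 83.1 CPM at 9.0 dpc, a log2 fold change of -1.07 ± 0.11 (adjusted p = 3.54e-04 by edgeR). Tet2 had 13.8 and 13.2 CPM with PI, against 7.26 and 8.06 CPM at 9.0 dpc, a log2 fold change of 0.82 ± 0.23 (adjusted p = 0.0396 by edgeR). Dnmt3b kept its call without each library in turn and Tet2 lost it in all 4 such fits (adjusted p from 0.136 to 0.207). Tet3 had 57.2 and 60.1 CPM with PI, against 50.9 and 45.6 CPM at 9.0 dpc (0.31 ± 0.11 on the log2 scale, adjusted p = 0.0929 by edgeR), and with the lot as a block it passed, with 0.34 and an adjusted p of 0.0222. Dnmt1, Uhrf1, Dnmt3a and Tet1 had log2 fold changes of -0.13 to 0.19, with adjusted p-values from 0.197. Thus Dnmt3b averaged 38.4 ± 0.24 CPM in wt libraries with PI, 26.8 ± 1.01 CPM in those without PI at 9.5 dpc and 82.2 ± 1.27 CPM in those at 9.0 dpc (SD, n = 2 each), and the 3 ranges are apart. Cell type markers moved in this comparison as well. All 5 neuron markers were higher with PI (221 to 226 CPM, against 77.5 to 87.2 CPM at 9.0 dpc), and 4 of 5 surface ectoderm markers were lower (42.6 to 54.5 CPM against 214 to 225 CPM). Of 6 neural progenitor markers 3 were higher and 1 lower (419 to 437 CPM against 292 to 321 CPM), and 2 of 6 erythroid markers were higher (5007 to 6803 CPM against 3760 to 3777 CPM). Fabp7 made up 211 and 218 CPM of the neural progenitor sums with PI, against 111 and 99.1 CPM at 9.0 dpc. Of the 5 mesenchyme markers 2 were higher and 2 lower, of 5 midbrain and isthmus markers tested 3 were higher, and of 3 macrophage and platelet markers tested 1 was higher. Their part in the changes of Dnmt3b and Tet2 was not tested.

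**Figure D4:**
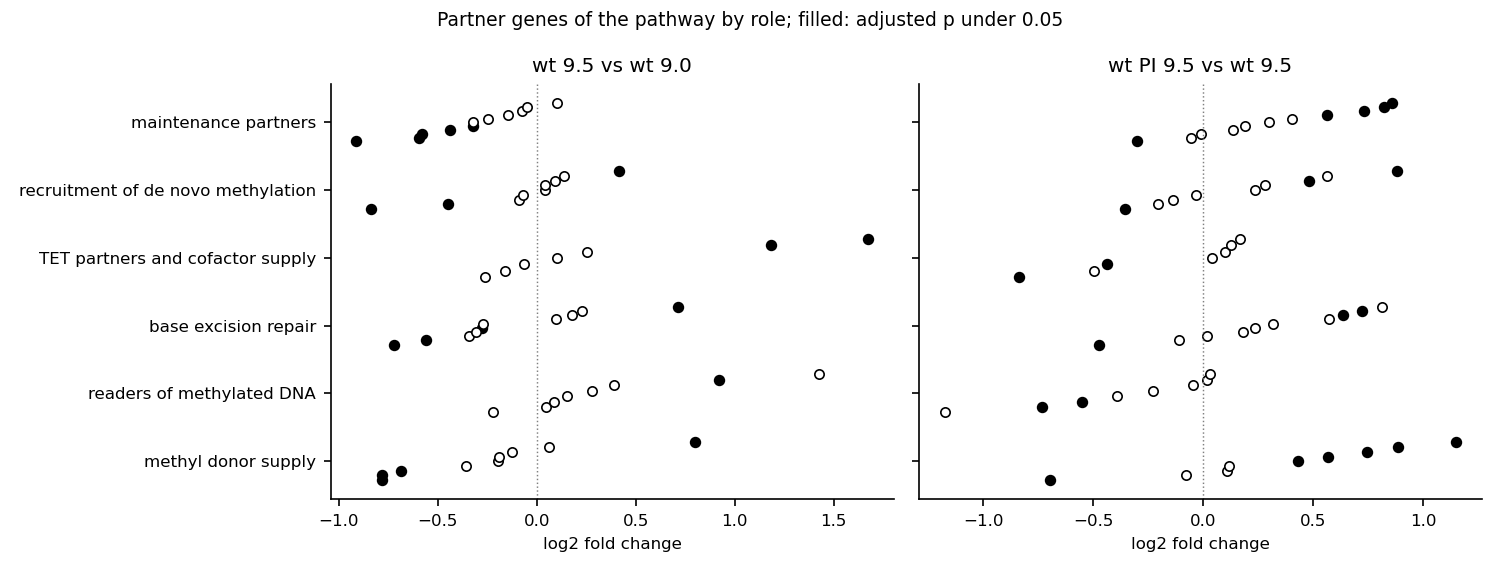
Log2 fold changes of the partner genes by role, wt at 9.5 dpc over wt at 9.0 dpc on the left and wt with PI over wt without at 9.5 dpc on the right; filled points have an adjusted p under 0.05 and each point is 1 gene. Of 11 maintenance partners 5 are called lower on the left, and 4 higher and 1 lower on the right; both panels use the same wt libraries at 9.5 dpc.

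Among the 54 partners tested, 13 were higher and 8 lower with PI than without, where 15.6% of all genes tested were higher and 12.4% lower. The comparison shares its 9.5 dpc libraries with the stage comparison, so opposite signs in the pair are not independent. Maintenance partners Cdca7 (0.86), Usp7 (0.56) and Cdca7l (0.82) rose, and Uhrf2 (-0.30), a paralog of Uhrf1, fell. Of 9 methyl donor genes 5 rose, led by Shmt2 (1.152), Mat2a (0.89) and Mat2b (0.74), and 1 fell. Cxxc4 (-0.84) and Idh1 (-0.44) fell. Ehmt2 (0.88) and Trim28 (0.48) rose while Nsd2 (-0.35) fell. In base excision repair Apex1 (0.72) and Tdg (0.63), the glycosylase that removes oxidised methylcytosine, rose, and Neil3 (-0.47) fell. Of 8 readers 2 fell, among them Zbtb33 (-0.73). The median over tested partners was 0.12, against 0.01 over all genes, and by library totals 14 were higher and 5 lower (15.4% and 10.7% of all genes), with the calls of Neil3, Nsd2 and Uhrf2 lost. Neuron markers moved too: 4 of 5 were called lower, with summed levels of 221 to 226 CPM with PI and 518 to 596 CPM without, and 5 of 6 neural progenitor markers were lower (419 to 437 CPM against 1398 to 1549 CPM). Fabp7 made up 211 and 218 CPM of the neural progenitor sums with PI, against 1111 and 1049 CPM without. All 3 macrophage and platelet markers tested were lower (21.1 to 22.8 CPM against 98.7 to 111 CPM, mostly Pf4, at 21.7 and 18.8 against 78.2 and 97.0 CPM). So were 2 of 6 erythroid (5007 to 6803 CPM against 9559 to 12999.5 CPM) and 2 of 5 mesenchyme markers (293 to 325 CPM against 429 to 483 CPM). Col3a1 made up 240 and 209 CPM of the mesenchyme sums with PI, against 360 and 321 CPM without. Of 5 surface ectoderm markers 2 were higher (42.6 to 54.5 CPM against 29.0 to 36.8 CPM), of 5 midbrain and isthmus markers tested 3 were higher and 2 lower, and 1 of 5 endothelial markers was higher. Among 12 S-phase and mitosis genes 5 were higher and 1 lower (3374 to 3433 CPM against 2786 to 2907 CPM). Their part in the changes of Dnmt3b and Uhrf1 was not tested. Against 9.0 dpc, 4 partners were higher with PI, Idh1 (1.23), Mat2b (0.55), Shmt2 (0.47) and Cbx5 (0.37), and Uhrf2 (-0.38) was lower (8.60% and 6.99% of all genes). With the lot as a block 14 partners were called, 10 higher and 4 lower (28.5% of all genes called). By library totals 10 were higher and none lower (14.2% and 3.93% of all genes), Uhrf2 losing its call.

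Skp1aKO- and Skp1acont-labelled libraries at 9.5 dpc are the pair the labels set against each other. No member was called, and none of the 18837 genes tested was either (0% called; 1308 genes had an unadjusted p under 0.05, and the DESeq2 Wald test called 95 genes, or 0.504%, none of them a member). Dnmt3b was the member with the smallest p. It had 17.3 and 16.1 CPM in Skp1aKO-labelled libraries, against 31.2 and 31.4 CPM in Skp1acont-labelled ones, and the groups do not overlap. Its log2 fold change was -0.90 ± 0.25, with an unadjusted p of 0.00434 and an adjusted p of 0.426 by edgeR. With either Skp1acont library left out it passed: without replicate 2 Dnmt3b had -0.88 and an adjusted p of 0.00484, where 27.3% of all genes were called, and without replicate 1 it had -0.93 and 6.94e-04, where 31.3% were called. Each such fit rests on 1 Skp1acont library, taken to vary like those of the other groups, here and below. Dnmt3b was lower in all 10 alternatives, at -1.07 to -0.84.

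Of the other 6 genes, all but Tet1 changed sign without Skp1acont replicate 2. Dnmt1 had 74.5 and 74.2 CPM in Skp1aKO-labelled libraries, against 100.3 and 37.1 CPM in Skp1acont-labelled ones. Dnmt3a had 39.6 and 41.1 CPM, against 54.5 and 19.6 CPM. Uhrf1 had 143 and 143 CPM, against 190 and 91.8 CPM. In each of these genes the KO values lie between the 2 control values, and their log2 fold changes were 0.02 to 0.11. Without Skp1acont replicate 2 the signs turned, to -0.42 for Dnmt1 and Dnmt3a and -0.39 for Uhrf1, none of them called. Without replicate 1 they were 0.98, 1.02 and 0.62, all called, in the fit that called 31.3% of all genes. Tet3 had 46.9 and 52.6 CPM in Skp1aKO-labelled libraries, against 50.7 and 31.7 CPM in Skp1acont-labelled ones (0.27 ± 0.30 on the log2 scale; 0.63 without Skp1acont replicate 1, called, and -0.013 without replicate 2). Tet1 had 30.6 and 37.3 CPM, against 24.3 and 28.7 CPM, with no overlap (0.36 ± 0.26, adjusted p = 0.927 by edgeR). Tet2 had 33.2 and 32.5 CPM, against 26.8 and 47.7 CPM (-0.18 ± 0.32). The Dnmt3b share of de novo counts was 30.5% (25.2% to 36.2%) and 28.2% (23.1% to 34.0%) in the KO-labelled libraries, against 36.4% (32.1% to 40.9%) and 61.5% (54.0% to 68.5%) in the controls. Of 55 partners tested none was called (4 had an unadjusted p under 0.05, and DESeq2 called none). Partner calls without Skp1acont replicate 2 are not counted, as 1 Skp1acont library is then left.

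Estimated background bears on these levels. In Skp1aKO-labelled libraries it would account for 23.5% and 26.6% of the Tet2 level, 23.3% and 21.2% of Tet1, 19.4% and 20.7% of Dnmt3a and 16.4% and 16.3% of Tet3. The shares were 13.6% and 16.2% for Dnmt3b, 4.57% and 5.09% for Dnmt1 and 1.37% and 1.53% for Uhrf1. In Skp1acont replicate 2 they were 74.0% for Dnmt3a, 47.0% for Tet1, 45.9% for Tet3, 30.8% for Tet2, 17.3% for Dnmt1, 14.2% for Dnmt3b and 4.05% for Uhrf1, and in replicate 1 none was over 13.2%. With the background subtracted, Dnmt3b had a log2 fold change of -1.07 (adjusted p = 0.212 by edgeR).

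Set against wt libraries at 9.5 dpc, Skp1aKO-labelled libraries had higher Tet2 and no other member passed, where 17.6% of genes tested were called higher and 18.7% lower. Tet2 had 33.2 and 32.5 CPM in Skp1aKO-labelled libraries, against 17.3 and 11.6 CPM in wt libraries. The groups do not overlap, and the log2 fold change was 1.21 ± 0.33 (adjusted p = 0.0225 by edgeR). Skp1acont-labelled libraries had 26.8 and 47.7 CPM of Tet2, also above both wt libraries, with a log2 fold change of 1.38 ± 0.33 (adjusted p = 0.0159 by edgeR), where 19.3% of genes were called higher and 17.1% lower. Both comparisons use the same wt libraries. The Skp1acont PI library had 27.4 CPM, against 13.8 and 13.2 CPM in wt PI libraries, a log2 fold change of 1.02 ± 0.39 that did not pass (adjusted p = 0.152 by edgeR); without Skp1acont replicate 2 in the fit it passed, with 1.14 and an adjusted p of 7.05e-04, where 43.2% of all genes were called.

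In Tet2 counts the estimated background was 7.79 and 8.63 CPM in Skp1aKO-labelled libraries, 3.50 and 14.7 CPM in Skp1acont-labelled ones and 3.66 CPM in the Skp1acont PI library, against 1.63 to 3.11 CPM in wt libraries. With the background subtracted Tet2 was still called, at 1.59 (adjusted p = 0.0418) in the Skp1aKO and 1.94 (adjusted p = 0.0232) in the Skp1acont comparison by edgeR. Tet2 made up 30.0% (26.2% to 34.1%) and 26.5% (23.0% to 30.4%) of TET counts in Skp1aKO-labelled libraries. Its share was 26.3% (22.8% to 30.2%) and 44.1% (39.1% to 49.3%) in Skp1acont-labelled ones and 27.7% (24.0% to 31.7%) in the Skp1acont PI library. The wt libraries had 12.6% and 11.7% with PI, 15.1% and 10.2% at 9.5 dpc and 7.99% and 8.73% at 9.0 dpc, all below. Leaving out any library of the pair compared ended the Skp1aKO call (adjusted p from 0.058 to 0.159), leaving out either wt library ended the Skp1acont call (0.056 and 0.12), and without Skp1acont replicate 2 the values were 1.38 and 1.07, both called, where 67.9% and 39.1% of all genes were called. The Skp1a label, library quality and the way the libraries were made cannot be told apart here, as all Skp1a-labelled libraries had the higher mitochondrial share and background. Blood cell markers moved with the label as well: 4 of 6 erythroid markers were lower in either comparison, with summed levels of 615 to 752 CPM (Skp1aKO) and 533 to 1804 CPM (Skp1acont), against 9559 to 12999.5 CPM in wt libraries. Of 4 macrophage and platelet markers 2 were lower in each and none was called higher, with sums of 10.5 to 12.6 CPM and 12.98 to 26.0 CPM, against 98.7 to 111 CPM. Pf4 made up most of these wt sums, with 78.2 and 97.0 CPM. Csf1r had 7.71 and 9.94 CPM (Skp1aKO) and 5.70 and 7.55 CPM (Skp1acont), against 12.1 and 6.90 CPM. The 1 Skp1acont PI library had 37.2 CPM of macrophage and platelet markers, 29.9 CPM of it Pf4, against 21.1 to 22.8 CPM in wt PI libraries. Those at 9.0 dpc had 0.692 to 2.61 CPM. Neural progenitor markers were lower with the Skp1aKO (2 of 6) and the Skp1acont label (3 of 6), with sums of 307 to 324 and 169 to 433 CPM, against 1398 to 1549 CPM in wt libraries at 9.5 dpc. Most of these wt sums was Fabp7, at 1111 and 1049 CPM, against 71.3 and 50.1 CPM (Skp1aKO) and 178 and 22.6 CPM (Skp1acont). Of 5 neuron markers 2 were lower with either label, of 5 mesenchyme markers 2 and 3, and of 5 surface ectoderm markers 2 and 1. Endothelial markers were 1 higher and 3 lower of 5 with the Skp1aKO label and 1 higher and 1 lower with the Skp1acont label, and the 1 placenta and yolk sac marker tested was lower with either. Of 7 midbrain and isthmus markers 4 and 3 were higher, though 2 of the 7 passed the filter on low counts in the fit of all groups and not among wt libraries. The part of any of these cells in the Tet2 level was not tested.

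The other members gave no call against wt libraries. Scaling matters for them: over all genes the median log2 ratio was 0.24 for Skp1aKO over wt with TMM, 0.47 with DESeq2 size factors and 1.03 with library totals, and that for Skp1acont over wt was 0.34, 0.62 and 1.07. With the lone Skp1acont PI library over wt PI it was 0.10, 0.26 and 0.69. Under library totals 36.1% of genes were called higher and 7.43% lower for Skp1aKO over wt, and 37.5% and 6.62% for Skp1acont over wt. Dnmt3b had 17.3 and 16.1 CPM in Skp1aKO-labelled libraries, against 27.5 and 26.1 CPM in wt libraries, with no overlap and a log2 fold change of -0.68 ± 0.25 (adjusted p = 0.0535 by edgeR). It was -0.54 without Skp1acont replicate 2 in the fit and turned to 0.12 under library totals. Against the same wt libraries Dnmt3b in Skp1acont-labelled ones had a log2 fold change of 0.22 ± 0.24, and under library totals it was called, at 0.96. Tet1 had 24.3 and 28.7 CPM in Skp1acont-labelled libraries, against 38.5 and 46.5 CPM in wt libraries, with no overlap (-0.69 ± 0.26, adjusted p = 0.0621 by edgeR), and turned to 0.054 under library totals. Without Skp1acont replicate 1 its log2 fold change was -0.54 and without replicate 2 it was -0.70, each fit resting on 1 Skp1acont library. In the Skp1acont PI library Tet1 had 22.5 CPM, against 38.6 and 40.2 CPM in wt PI libraries (-0.81 ± 0.33, adjusted p = 0.175 by edgeR). It was lower in all 9 alternatives there, at -0.86 to -0.21, with -0.69 without Skp1acont replicate 2 in the fit. Dnmt1, Dnmt3a, Uhrf1 and Tet3 had log2 fold changes of -0.61 to -0.02 in these 3 comparisons, with SEs of 0.30 to 0.51. Without Skp1acont replicate 1, 6 members were called for Skp1acont over wt, where 74.0% of all genes were called.

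No member was called between the Skp1acont PI library and wt PI libraries, where 0.441% of genes were called (2 members had an unadjusted p under 0.05 and the DESeq2 Wald test called none). The Skp1acont PI group is 1 library, taken to vary like those of the other groups. Whether the difference between Skp1acont and wt libraries itself differed with PI was tested as an interaction. The differences, with PI minus without, ran from -0.42 for Dnmt3b to 0.40 for Dnmt3a on the log2 scale, with adjusted p-values of 0.838 to 0.988 by edgeR and SEs of 0.38 to 0.66, too wide to tell.

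Of 55 partners tested, 3 were higher and 11 lower in Skp1aKO-labelled libraries than in wt libraries, where 17.6% of all genes tested were higher and 18.7% lower. In Skp1acont-labelled ones 2 were higher and 13 lower, where 19.3% of all genes were higher and 17.1% lower. Zbtb33, which encodes the methyl-CpG reader Kaiso, had 5.99 and 5.74 CPM in Skp1aKO-labelled libraries and 14.1 and 12.7 CPM in Skp1acont-labelled ones, against 58.0 and 69.8 CPM in wt libraries. Its log2 fold changes were -3.44 ± 0.29 and -2.25 ± 0.28 (adjusted p = 0.00122 and 0.00565 by edgeR), and no Skp1a-labelled library reached a wt one. The Skp1acont PI library had 15.3 CPM of Zbtb33, against 38.6 and 38.9 CPM in wt PI libraries (-1.34 ± 0.34, adjusted p = 0.0760). Idh1 fell (-2.54 and -2.56), as did Cxxc4 (-0.93 and -1.25). In base excision repair Polb (-1.96 and -1.65), the repair polymerase gene, and Neil3 (-1.16 and -1.01) fell, while Neil2 (2.67 and 3.17), a glycosylase, rose. Neil2 had 27.8 and 28.3 CPM (Skp1aKO) and 15.2 and 64.9 CPM (Skp1acont), against 3.30 and 5.14 CPM in wt libraries. It was highest in Skp1acont replicate 2, the library with the highest background, and the part of the background in it was not tested. The clamp gene Pcna fell (-2.03 and -2.03), as did Mat2b (-1.83 and -1.58) of methyl donor supply, and Ehmt2 rose (0.95 and 1.45). Calls made in 1 of the comparisons included Apex1 (-1.93) and Dmap1 (-1.001) with the Skp1aKO label and Ogt (-1.47), Lig3 (-1.67), Hells (-0.98) and Mbd2 (-1.25) with the Skp1acont label; no gene was called between these labels, so the difference is not shown. Dnmt3l, the catalytically inactive DNMT3 cofactor, is 1 of the 3 partners called higher with the Skp1aKO label. It passed the filter only through Skp1a-labelled libraries, so it had to be higher there and its call is no support. It had 0.856 and 1.55 CPM, against no count in either wt library at 9.5 dpc, levels too low for a fold. Other wt libraries had 0.345 and 0.538 CPM (PI) and 0.692 and 0.711 CPM (9.0 dpc), and Skp1acont-labelled ones 0.190 and 1.81 CPM. These splits depend on scaling. By library totals 14 partners were higher and 4 lower with the Skp1aKO label (36.1% and 7.43% of all genes). With the Skp1acont label 8 were higher and 5 lower (37.5% and 6.62% of all genes), and no partner named changed sign. The calls of Cxxc4 (-0.13 by library totals), Neil3 (-0.35), Dmap1 (-0.22), Mat2b (-1.02), Pcna (-1.22) and Apex1 (-1.13) were then lost with the Skp1aKO label. With the Skp1acont label those of Hells (-0.26), Neil3 (-0.28), Cxxc4 (-0.52), Mbd2 (-0.55), Ogt (-0.77), Mat2b (-0.88) and Lig3 (-0.98) were lost. Zbtb33, Idh1, Polb, Neil2 and Ehmt2 were still called with either label. The median over partners was -0.52 and -0.45 with TMM, against 0.24 and 0.34 over all genes, and 0.28 and 0.26 by library totals, against 1.03 and 1.07. Counts of partners called moved in both comparisons when 1 library was left out, and each such fit leaves 1 library in a group. In the Skp1acont PI library no partner was called against wt PI libraries, where 0.441% of all genes were called (9 partners had an unadjusted p under 0.05, and the DESeq2 Wald test called 7, where it called 9.61% of all genes).

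Genes of the germ line that promoter methylation is known to silence were at low counts throughout. Of 15 such genes 10 passed the filter in the fit of all groups and 2 among wt libraries, so that a gene passing only through Skp1a-labelled libraries had to be higher there, and calls are not counted. Summed levels were 25.2 to 25.5 CPM in Skp1aKO-labelled libraries, 10.3 and 41.1 CPM in Skp1acont-labelled ones and 9.78 CPM in the Skp1acont PI library, against 8.30 to 12.8 CPM in wt libraries. The sums are highest in the 3 libraries with the highest background (8.16 to 17.0 times the lowest), and the part of the background in them was not tested. Among S-phase and mitosis genes 6 of 12 were lower and none higher with the Skp1aKO label (summed levels 1189 to 1274 CPM, against 2786 to 2907 CPM in wt libraries). With the Skp1acont label 3 were lower and 1 higher (644 to 1827 CPM). Neither group of genes was tested as a source of the changes in the 7 genes.

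The shares of all genes called under other analyses set the scale for counts of members called in them. For Skp1aKO over wt, 18.6% were called with no filter on low counts and 0 members, and for wt PI over wt at 9.5 dpc 13.1% and 1 member. By library totals 1 member and 6.11% of genes were called for Skp1acont PI over wt PI. The DESeq2 Wald test called 18.0% of genes for the stage, 16.5% for wt PI over wt and 8.23% for wt PI over 9.0 dpc, with 1 member in each. With the lot as a block 41.7%, 38.9% and 28.5% of genes were called, with 4, 2 and 3 members. In a fit of all groups, whose spread is wider, 1.60%, 0.0690% and 0.0106% of genes were called, with 1, 0 and 0 members, and without Skp1acont replicate 2, 13.9% for wt PI over wt, with 0 members.

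Genes with profiles most like each member were found by the root mean square difference of log2 CPM, each profile centred on its own mean, over 11 libraries and 18836 other genes. Dnmt1 was nearest to Got2 (0.10), Ddi2 (0.12) and Sf3b2 (0.12), and Uhrf1 to Msn (0.09), Sod1 (0.09) and Sf3b2 (0.11). Dnmt1 and Uhrf1 were each other's nearest member, at 0.14, ranked 22 and 29 among all genes. Dnmt3a was nearest to Psme3 (0.09), Rere (0.10) and Zc3h11a (0.10), with Dnmt1 its nearest member (0.15). Dnmt3b was nearest to Prokr1 (0.26), Fam221b (0.28) and Lpcat3 (0.29), and its nearest member was Uhrf1 at 0.64. Its own SD was 0.75, against 0.32 for Tet1 and 0.25 for Tet3, so these distances are not on a like scale. Tet2 was nearest to Gm2398 (0.18), Gdf3 (0.19) and Ppp1r12b (0.20), and its nearest member, Tet3, stood at 0.98. Tet1 was nearest to Cdkl3, Slc1a3 and Zfp280d (0.12 to 0.14) and Tet3 to Ctnnd1, Nfatc3 and Epb41 (0.11 to 0.12). All points share the libraries and their depth and background, so these are descriptions.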

How the data were processed

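Poly(A) RNA-seq of 11 libraries was used, selected with the NEBNext poly(A) module after Qiagen RNeasy extraction, per the labels' protocols. The authors deposited raw counts, whole numbers of reads for each gene, without normalization. The submitters' processing notes name Trim Galore 0.6.7 and GRCm38; no aligner, counting tool or strand setting is given there. These were analysed in edgeR 4.0.16 under R 4.3.3 (filterByExpr by group, TMM, robust quasi-likelihood F test, two-sided, Benjamini-Hochberg adjustment over all genes tested). Comparisons with a Skp1a label used 1 fit of all 6 groups (18837 genes) and comparisons of wt groups a fit of the 6 wt libraries (13126 genes), both without a lot block. The biological coefficient of variation was 35.3% and 19.6%, and 19.4% in the first fit without Skp1acont replicate 2. In the wt fit with the lot as a block it was 7.19%, so the spread behind the main wt tests includes differences between lots. CPM values are TMM-scaled in the fit of all groups. For profiles, log2 CPM values had a prior count of 2. Depths of 2320599 to 11607085 counts give floors of 0.259 to 1.29 CPM for 3 counts.

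Alternatives were DESeq2 size factors, library totals, no filter on low counts, the Wald test of DESeq2 1.42.0, the lot as a replicate block, a fit of all groups for the wt comparisons and leaving out each library. The following were chosen after seeing the data: the background subtracted from the counts, and the fit of all groups without Skp1acont replicate 2 for the wt comparisons. Deviations from the group mean correlated between wt libraries of the same lot (r = 0.30 to 0.34 across genes in 3 pairs of groups), so lots were taken to pair the wt libraries, from the data; in the 7 pairs with a Skp1a label r was -0.01 to 0.18 and lots share only a number. The scripts were tested on simulated data. The members and gene lists were chosen with earlier results of these data known. Named partners are at most 3 higher and 3 lower per list with the smallest p among those called, and others are given as counts; a few genes the rule names are not reported here. Sequences are from RefSeq tables; gene spans, exon lengths and overlaps are from GENCODE M21.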

Additional observations from a re-analysis of the deposited data

How the results depend on the processing

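Of 49 log2 fold changes of members, 9 were called, and none of these 9 reversed in any alternative. Of 511 alternative values of members, 386 kept direction and call, 39 lost and 21 gained a call, and 65 reversed, all of uncalled results and none called itself; the cause was not tested.

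Reversed under library totals were Skp1aKO over wt for Dnmt1 (0.67), Dnmt3a (0.31), Dnmt3b (0.12), Uhrf1 (0.55), Tet1 (0.48) and Tet3 (0.61), Skp1acont over wt for Dnmt1 (0.45), Dnmt3a (0.087), Uhrf1 (0.44), Tet1 (0.054) and Tet3 (0.25), Skp1acont PI over wt PI for Dnmt1 (0.58), Dnmt3a (0.40), Dnmt3b (0.41), Uhrf1 (0.51) and Tet3 (0.34), the stage value of Dnmt3a (5.36e-04) and wt PI over 9.0 dpc for Dnmt1 (0.014). With DESeq2 size factors and the DESeq2 Wald test they were Skp1aKO over wt for Dnmt1 (0.10, 0.10) and Tet3 (0.036, 0.038), Skp1acont PI over wt PI for Dnmt1 (0.15, 0.15) and Uhrf1 (0.0700, 0.0697) and wt PI over 9.0 dpc for Dnmt3a (-0.0200, -0.0200), and with size factors Tet3 for PI (-0.003404). With the background subtracted they were Skp1aKO over wt for Dnmt1 (0.41), Uhrf1 (0.33) and Tet3 (0.19), Skp1acont over wt for Dnmt1 (0.15) and Uhrf1 (0.25), and Skp1acont PI over wt PI for Dnmt1 (0.24), Dnmt3a (0.028), Dnmt3b (0.059) and Uhrf1 (0.17). With no filter Uhrf1 gave -0.018 for Skp1aKO over Skp1acont. The replicate block reversed Tet2 for PI (0.013) and Dnmt3a for wt PI over 9.0 dpc (-0.00157), and the fits of all groups gave -0.021 and, without Skp1acont replicate 2, -0.037 for the last.

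Leaving out 1 library, values ran for Skp1aKO over Skp1acont from -0.42 to 0.98 (Dnmt1), -0.42 to 1.02 (Dnmt3a), -0.39 to 0.62 (Uhrf1), -0.56 to 0.31 (Tet2) and -0.013 to 0.63 (Tet3), for Skp1aKO over wt from -0.19 to 0.076 (Dnmt1), for Skp1acont over wt from -1.10 to 0.42 (Dnmt1), -1.50 to 0.054 (Dnmt3a) and -0.85 to 0.28 (Uhrf1), for Skp1acont PI over wt PI from 0.035 to 0.11 (Dnmt1) and -0.12 to 0.075 (Uhrf1), for the stage from -0.24 to 0.026 (Dnmt3a), for PI from -0.031 to 0.085 (Tet3), -0.027 to 0.25 (Dnmt3a) and -0.40 to 0.19 (Tet2), and for wt PI over 9.0 dpc from -0.056 to 0.048 (Dnmt3a).

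Counts of members called, and of partners called, ran without 1 library from 0 to 5 and 0 to 35 for Skp1aKO over Skp1acont, 0 to 2 and 1 to 34 for Skp1aKO over wt, 0 to 6 and 0 to 42 for Skp1acont over wt, 0 to 2 and 0 to 26 for Skp1acont PI over wt PI, 1 to 2 and 14 to 20 for the stage, 0 to 2 and 11 to 20 for PI, and 1 to 1 and 1 to 2 for wt PI over 9.0 dpc. Each of these fits leaves 1 library in a group. The highest member counts for Skp1aKO over Skp1acont and for Skp1acont over wt come from the fits without Skp1acont replicate 1. Those fits called the large shares of all genes given above. For the fits that left out a wt or a Skp1aKO library no share of all genes is given. Their counts cannot be told from background, so they are not given here and no conclusion is drawn from them. With library totals members called were 2 for Skp1acont over wt and 1 for Skp1acont PI over wt PI, and partners 2 for that pair and 10 for wt PI over 9.0 dpc. With no filter members were 0 for Skp1aKO over wt and 1 for PI. The DESeq2 Wald test called 1 member for the stage, PI and wt PI over 9.0 dpc, against 3, 2 and 2, and 7 partners for Skp1acont PI over wt PI, where size factors called 1 and background subtraction 2. In the fit of all groups the stage gave 1 member and 1 partner, and both wt PI comparisons 0 and 0. The replicate block gave 14 partners for wt PI over 9.0 dpc, against 5, added the Tet3 calls named above, and changed no other call of a member.

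Depth limits Tet2 most in wt libraries, with 21 to 123 counts. In Skp1aKO-labelled libraries Dnmt3b had the fewest counts of the members (81 and 73), and in Skp1acont replicate 2 Dnmt3a did (65).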
